A study of Mus musculus with 6 samples.

Results

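The Notch receptors Notch1, Notch2, Notch3 and Notch4 and the ligands Jag1, Jag2, Dll1 and Dll4 were examined in RNA from mouse tibial cartilage. The members were every non-control array probe whose RefSeq accession belongs to one of these 8 genes, which gave 10 probes of 55681 on the array (8 of 20972 named genes). Notch1 and Notch2 were each measured by 2 probes, and each of the other 6 genes by 1. The accessions were NM_008714 (Notch1), NM_010928 (Notch2), NM_008716 (Notch3), NM_010929 (Notch4), NM_013822 (Jag1), NM_010588 (Jag2), NM_007865 (Dll1) and NM_019454 (Dll4).

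The study compared 3 control mice with 3 mice of the genotype ADAM10 flox/flox-Col2a1-Cre, called mutants here, all on the C57BL/6 strain. In the mutants, Cre recombinase is driven by the promoter of Col2a1, the collagen II gene of chondrocytes, which directs recombination of the floxed Adam10 alleles to that lineage. A tissue sample can also hold vessels, marrow and muscle. The labels do not give the alleles of the controls, the age or the sex of the mice. Signal of Xist, a transcript of female cells, exceeded that of Ddx3y, a gene of the Y chromosome, in control mouse 1 and mutant mouse 3 only. Labelled RNA (100 ng per mouse) was hybridised to Agilent 1-colour arrays, 1 array per mouse.

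Notch receptors are transmembrane proteins that are activated by ligands of the Jagged and Delta-like families on a neighbouring cell. Ligand binding exposes a site that ADAM10, a membrane protease, cuts, after which gamma-secretase frees the intracellular domain to act with the DNA-binding protein RBPJ on target genes such as those of the Hes and Hey families. In bone and cartilage, Notch signalling is known for its roles in chondrocyte maturation and in the vessels that enter the growth plate. The arrays measured transcripts of the receptors and ligands, and not their cleavage.

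Values are log2 signals relative to the 75th percentile of each array, which lay between 510.3 and 631.0 intensity units, and differences are mutant minus control. Single values are listed in the order of mice 1, 2 and 3 of each group. Between 62.4% and 65.4% of spots were well above background, a flag of the scanner software. The comparison used limma, a linear model fitted to all 35228 probes whose spots carried that flag on 3 or more of the 6 arrays, with p-values adjusted over all of them. All 10 member probes passed this filter. Adam10 itself had control values of 1.61, 1.58 and 1.21 and mutant values of 0.15, -1.70 and 0.31, so its groups did not overlap (unadjusted p 0.0103, adjusted p 0.995). Its single probe may or may not lie in the deleted part, since the floxed exon is not named. All 20 chondrocyte markers examined, Col2a1 among them, were well above background on all 6 arrays. Mutant 2 was the array that stood apart for the members: it gave the lowest value of the 6 arrays for 6 of the 8 genes. It was the lowest array for 18.3% of all tested probes and the highest for 36.7%. Control 1 was the lowest array for 33.9% of all tested probes and the highest for 4 of the 8 genes.

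Of the 8 genes, each represented by its brightest probe, 7 had a lower mean in mutants, with a median difference of -0.40, while 39.8% of all tested probes lay below 0 and their median was 0.04. None of the 10 member probes passed the limma threshold of an adjusted p below 0.05, which 0 probes passed over the whole array (0% of those tested; smallest adjusted p 0.514). At an unadjusted p below 0.05 there was 1 member probe, the dimmer Notch2 probe, against a background of 3.44% of tested probes in either direction and 1.78% in the lower direction. The control and mutant arrays overlapped for all 10 member probes, where 8.79% of tested probes had groups that did not overlap. Without mutant 2 the median difference of the 8 genes was -0.031, so the lower means rested mainly on that 1 array. It was -0.25 without control 1 and -0.62 without mutant 1.

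**Figure D1:**
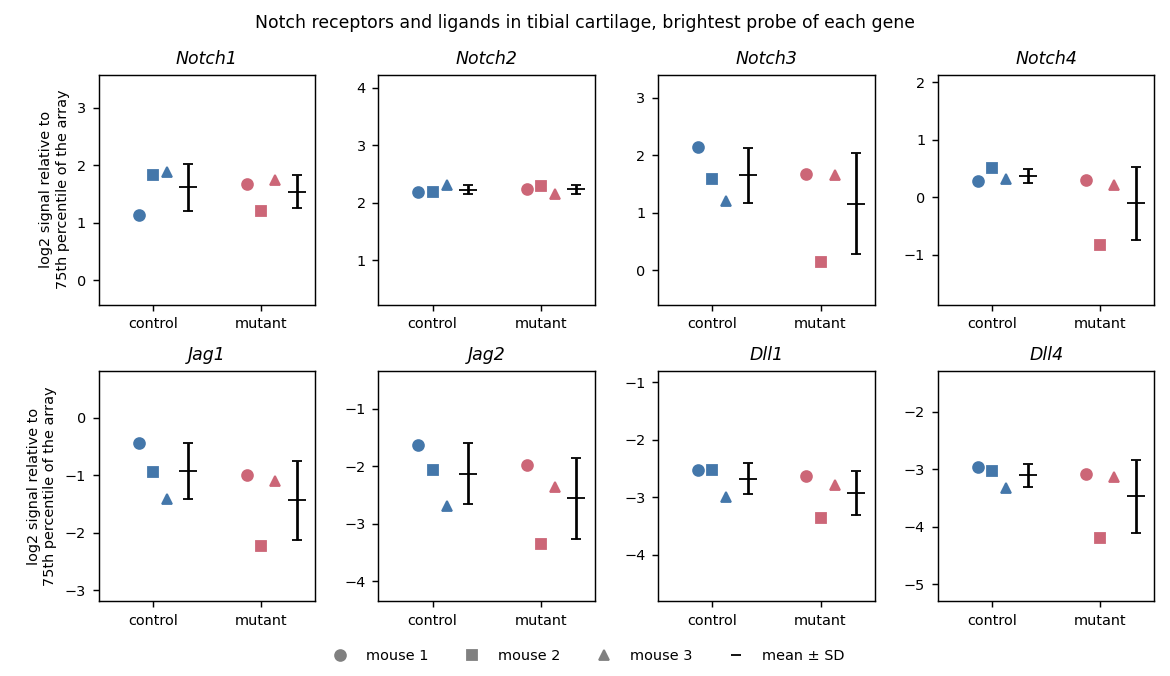
Log2 signal relative to the array's 75th percentile (vertical axes, all of equal span) for the brightest probe of each gene in control and mutant mice. Points are single arrays, with symbols for the mouse number, and bars are means with SD (n = 3). Mutant 2 (square) lies below the other 5 arrays for Notch3, Notch4, Jag1, Jag2, Dll1 and Dll4, and Notch2 is nearly level across all 6.

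Among the receptors, Notch2, which is broadly expressed in mesenchymal and blood lineages, varied least. Its brighter probe read 2.19, 2.18 and 2.31 in the controls and 2.25, 2.30 and 2.15 in the mutants. These 6 values spanned 0.17, and both groups covered nearly the same range. The control mean was 2.23 ± 0.07 (SD, n = 3) and the mutant mean 2.23 ± 0.08 (SD, n = 3), and the 95% interval of the difference from the limma fit ran from -0.28 to 0.28. The dimmer Notch2 probe gave another picture, at -3.65, -3.80 and -3.25 in controls and -4.07, -3.79 and -4.35 in mutants. Mutants 1 and 3 lay below all controls there, and mutant 2 fell between controls 1 and 2. This probe was well above background on all 6 arrays. Its difference was -0.50 (SE 0.21; limma unadjusted p 0.0498, adjusted p 0.995; two-sided exact permutation p 0.2). The processed signal of this probe was only 25.0 to 53.6 intensity units, against 2259 to 2994 for the brighter one, and the scanner software's own error estimate for it was 12.6% to 19.1% of the signal. With normexp background correction (added offset of 50 units) and percentile scaling the difference of the dimmer probe was -0.16, and its unadjusted p no longer passed. Over 21 alternatives its difference lay below 0 in 21, from -0.76 to -0.11, and its unadjusted limma p was below 0.05 in 9, without mutant 2 among them (-0.64, p 0.0249). Its smallest adjusted p there was 0.348, with array weights. Some of these alternatives, such as the filters on dim probes and the replicate block, could not change a difference. The gap between the 2 probes differed between groups by -0.51 (exact permutation p 0.1, the smallest that 3 arrays against 3 allow, so this design cannot pass 0.05). The 95% intervals of the 2 probes overlapped, and no single change is given for Notch2.

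Notch1, a receptor found in chondrocyte precursors and endothelium among other cells, read 1.15, 1.83 and 1.89 in the controls and 1.67, 1.21 and 1.74 in the mutants. Control 1 and mutant 2 were the low arrays, 1 in each group, and all 3 mutants lay within the range of the controls. The difference was -0.08 (SE 0.25), with a 95% interval from -0.68 to 0.52, and it turned to 0.085 without mutant 2, to 0.022 without control 2 and to 0.054 without control 3. A second Notch1 probe, at 10.6 to 21.7 intensity units, was well above background on 1 of 3 control arrays and 2 of 3 mutant arrays. Its error estimate was 19.8% to 37.2% of the signal, and its difference was 0.16 (SE 0.28).

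Notch3, a receptor of vascular smooth muscle cells and pericytes, varied most of the 8 genes. It read 2.15, 1.60 and 1.21 in the controls and 1.68, 0.15 and 1.65 in the mutants. Mutants 1 and 3 fell inside the control range, and mutant 2 stood 2.85-fold below the control mean. The control mean was 1.65 ± 0.47 (SD, n = 3) and the mutant mean 1.16 ± 0.88 (SD, n = 3), which differ by -0.49 (SE 0.46; 95% interval -1.61 to 0.62; unadjusted p 0.324 in the limma fit). Without mutant 2 the difference was 0.013, without mutant 1 it was -0.75 and without control 1 it was -0.24. Markers of mural cells, the cells that wrap vessels, were scored as the mean over 12 tested genes of the log2 signal minus the gene's mean over the 6 arrays. That score was highest on control 1, at 0.68, and lowest on mutant 2, at -0.79, with control 3 second lowest at -0.35. Of the 12 mural markers, 7 had a difference below 0 and the summed level ran from 82.6 to 97.5 times the 75th percentile in controls and from 92.4 to 98.2 in mutants, so the sum, which the brightest markers dominate, did not fall on mutant 2. Their part in the Notch3 values was not tested.

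Notch4, a receptor of endothelial cells, had the narrowest control group after Notch2 among the receptors. Its values were 0.27, 0.51 and 0.32 in the controls and 0.30, -0.84 and 0.21 in the mutants. Mutant 1 lay within the control range, mutant 3 was just below it (-0.16 from the control mean), and mutant 2 lay 2.31-fold below the control mean. The difference was -0.48 (SE 0.31; 95% interval -1.22 to 0.27; unadjusted p 0.170 in limma), and it was -0.11 without mutant 2. In processed signal, mutant 2 gave 334.7 units for Notch4 where the other 5 arrays gave 591.7 to 792.5.

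The sequences just before the start sites of the least variable receptor (Notch2), the most variable (Notch3) and the endothelial one (Notch4) are shown to set their promoters side by side. They are the 250 bases upstream of the RefSeq start (assembly GRCm38.p6), 5′ to 3′ on the gene's strand, with matches to the GC box GGGCGG on either strand in capitals. Notch2 lies at chr3:98013288-98013537 on the plus strand, Notch3 at chr17:32166891-32167140 on the minus strand and Notch4 at chr17:34564045-34564294 on the plus strand.
Notch2: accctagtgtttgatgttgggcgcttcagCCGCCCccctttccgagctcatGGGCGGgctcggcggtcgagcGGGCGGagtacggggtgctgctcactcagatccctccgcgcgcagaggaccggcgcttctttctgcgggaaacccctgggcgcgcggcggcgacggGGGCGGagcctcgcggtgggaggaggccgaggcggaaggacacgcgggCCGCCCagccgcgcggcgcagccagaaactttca
Notch3: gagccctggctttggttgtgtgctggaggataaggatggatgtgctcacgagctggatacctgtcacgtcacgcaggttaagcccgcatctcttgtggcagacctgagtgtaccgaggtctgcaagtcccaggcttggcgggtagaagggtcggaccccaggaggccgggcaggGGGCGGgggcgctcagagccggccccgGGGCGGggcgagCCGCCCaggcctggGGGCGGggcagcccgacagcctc
Notch4: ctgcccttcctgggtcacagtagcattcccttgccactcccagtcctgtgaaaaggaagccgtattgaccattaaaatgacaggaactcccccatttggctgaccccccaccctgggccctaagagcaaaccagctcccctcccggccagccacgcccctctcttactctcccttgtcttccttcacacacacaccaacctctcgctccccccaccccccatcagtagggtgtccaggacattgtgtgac

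GC boxes, which bind factors of the SP family, numbered 5 in the Notch2 window and 4 in the Notch3 window, and none was found in that of Notch4. The Notch2 window was 72.0% G or C with 34 CpG pairs, and that of Notch3 was 68.8% with 17 pairs. The Notch4 window was 58.4% G or C with 4 CpG pairs, where the median over all 32851 promoter windows was 52.4% with 6 pairs. All 8 genes had a window in the table, and Dll1 had 2, giving 9. A GC box was found in 5 of these 9 windows (Notch1, Notch2, Notch3, Jag2 and Dll4) and in 32.7% of all windows. The RBPJ core TGGGAA, searched on both strands, was found in 0 of the 9 windows and in 21.6% of all windows, and TATAAA on the gene's strand in 0 of 9 and 7.59%. These counts describe letters in a short window, and no binding was measured.

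The 4 ligands all had lower means in mutants, and for each of them mutant 2 was the lowest array. Jag1, a ligand of vessels, smooth muscle and osteoblast-lineage cells, read -0.44, -0.95 and -1.42 in the controls and -1.00, -2.22 and -1.10 in the mutants. Mutants 1 and 3 lay between controls 2 and 3. The difference of -0.50 (SE 0.39; 95% interval -1.45 to 0.44; unadjusted p 0.245 in limma) was -0.11 without mutant 2 and -0.26 without control 1.

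Jag2, the second Jagged ligand, had values of -1.63, -2.07 and -2.69 in the controls and -1.98, -3.35 and -2.36 in the mutants. The arrays fell in nearly the order seen for Jag1, with control 1 highest and mutant 2 lowest. Its difference was -0.43 (SE 0.41; 95% interval -1.43 to 0.56). Leaving out mutant 2 gave -0.037 and leaving out control 1 gave -0.19. The value grew to -0.71 without control 3, and mutant 1 had a like weight (-0.73).

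Dll1, a Delta-like ligand, was the member with the most spots, 10 on every array. The mean over spots was -2.54, -2.52 and -2.99 in the controls and -2.64, -3.36 and -2.79 in the mutants. Between 8 and 10 spots per array entered these means, and the SD between spots of 1 array was 0.10 to 0.23. On mutant 2 the spots ran from -3.77 to -3.02, and on control 3, the next lowest array, from -3.28 to -2.87, so the 2 sets overlapped, and the standard errors of the 2 means over spots were 0.073 and 0.041. Spots of 1 array share its RNA and are not replicates of the genotype. Over mice the difference was -0.25 (SE 0.24; 95% interval -0.81 to 0.32; unadjusted p 0.335 in limma), and it was -0.032 without mutant 2, -0.39 without mutant 1 and -0.40 without control 3.

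**Figure D2:**
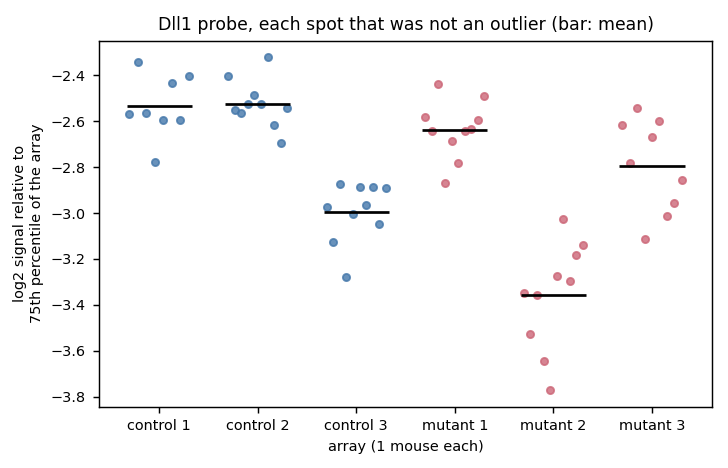
Log2 signal of each Dll1 spot that was not marked as an outlier, relative to the array's 75th percentile, on the 3 control and 3 mutant arrays, with bars at the array means. The spots of mutant 2 overlap those of control 3 and mutant 3 but not those of the other arrays. Mutant 2 has the lowest mean, at -3.36.

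Dll4, the Delta-like ligand of endothelial tip cells and arteries, read -2.96, -3.03 and -3.33 in the controls and -3.08, -4.20 and -3.14 in the mutants. Mutants 1 and 3 differed from the control mean by 0.027 and -0.033, and mutant 2 was 2.13-fold below it. In processed signal, mutant 2 gave 32.6 units and the other arrays 50.9 to 75.9. The control mean was -3.11 ± 0.19 (SD, n = 3) and the mutant mean -3.47 ± 0.63 (SD, n = 3), which differ by -0.37 (SE 0.32; 95% interval -1.12 to 0.39). Without mutant 2 the difference was -0.0033 and without mutant 1 it was -0.56. Normexp background correction was run with an added offset of 50 units, which compresses dim probes. Under it the difference was -0.073 with percentile scaling and -0.031 with quantile scaling. Dll1 moved likewise, to -0.15 and -0.11.

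Cell type markers were read on the same arrays, because several of these genes are transcribed in vessels. All 24 endothelial markers were well above background on all 6 arrays, Pecam1 and Cdh5 included, and 23 of 24 had a difference below 0, with a median of -0.60. At an unadjusted limma p below 0.05 there was 1 lower and 0 higher of the 24. The endothelial score was -1.02 on mutant 2, 0.07 on mutant 1 and 0.13 on mutant 3, while the controls ran from 0.03 to 0.41. The summed level of the list was 57.3 times the 75th percentile on mutant 2, 98.4 and 111 on the other mutants, and between 96.4 and 120 in the control group. Mutant 2 also had the lowest macrophage, osteoblast, mural and muscle scores (-1.69, -0.92, -0.79 and -2.27), the lowest osteoclast score (-1.91) and the highest chondrocyte score (0.40). All 10 osteoclast and all 9 macrophage markers tested had a difference below 0, with medians of -1.22 and -1.06. The marrow lists had median differences of -1.67 for 9 neutrophil, -1.12 for 9 erythroid and -1.60 for 8 B cell markers. By score, control 3 and mutant 1 were the 2 lowest arrays for each marrow list. By summed level the 2 lowest were mutants 1 and 2, with mutant 2 lowest for erythroid (60.2) and B cell markers (1.89). The muscle score was 2.36 on control 1 and 1.30 on mutant 1, against -0.86 and -1.06 on controls 2 and 3. Ordered from high to low, the arrays fell in the same sequence for the muscle score, the mural score and Notch3, and the highest, second and lowest arrays were also those of Jag2. These orders over 6 arrays are descriptions, and the part of these cells in the values was not tested. In tissue RNA, fewer cells of a type and less RNA per cell cannot be told apart.

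**Figure D3:**
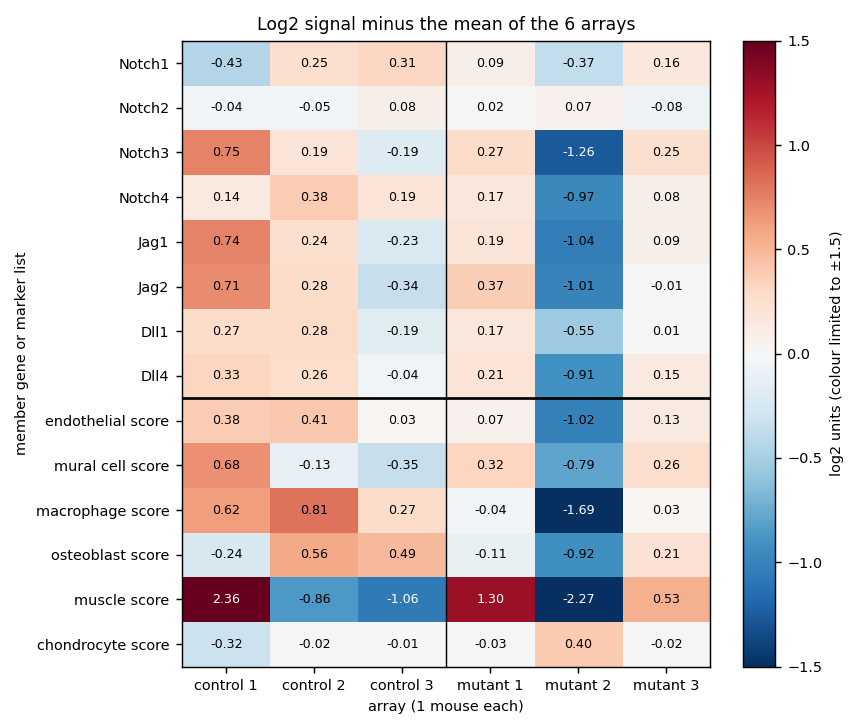
Log2 signal minus its mean over the 6 arrays for the 8 genes (upper rows) and the mean of the same quantity over the markers of 6 cell types (lower rows), with 1 column per mouse; colours are limited to 1.5 units either way. The mutant 2 column is low for 7 of the 8 genes and for every marker list except chondrocytes, and the 6 values of Notch2 span 0.17.

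When the endothelial score entered the fit as a covariate, the differences of the 7 genes with a lower mean turned to values above 0, from 0.011 for Notch4 to 0.26 for Notch3 (SE 0.17 and 0.23). Dll4 stood at 0.16 (SE 0.13), Jag2 at 0.19 (SE 0.28), Jag1 at 0.11 (SE 0.24), Dll1 at 0.098 (SE 0.16) and Notch1 at 0.088 (SE 0.30), while Notch2 went to -0.061 (SE 0.13). The smallest unadjusted p of these 8 fits was 0.274, for Dll4. The dimmer Notch2 probe moved the other way in this fit, to -0.76 (SE 0.19; unadjusted limma p 0.00823, adjusted p 1.00). The covariate leaves 3 residual degrees of freedom, and mutant 2 sets most of its range, so this fit and the one without mutant 2 are not separate evidence. Mutants 2 and 3 lay on the second row of the slide and the other 4 arrays on the first. On the first row, where mutant 1 alone stood against the 3 controls, the median difference of the 8 genes was 0.027.

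**Figure D4:**
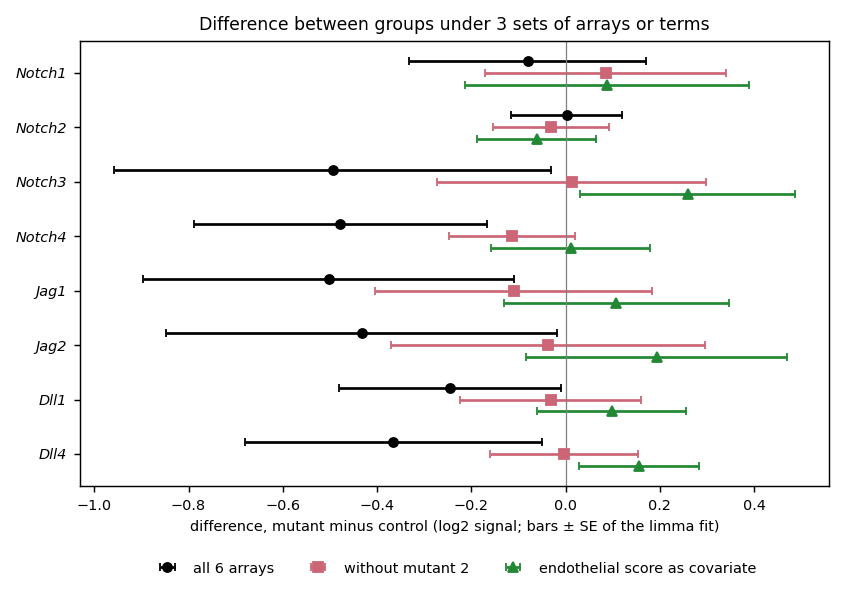
Differences between mutants and controls in log2 signal (horizontal axis) for the 8 genes, with bars of 1 SE of the limma fit either way, from all 6 arrays, without mutant 2, and from a fit that also holds the endothelial score. With all arrays 7 of 8 genes lie below 0, and without mutant 2 all 8 lie between -0.11 and 0.085.

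The genes whose values over the 6 arrays lay nearest to those of the 3 most variable members were found by the root mean square difference of log2 signals after removing each gene's mean. Nearest to Notch3 were Trim16, Lamb1 (a laminin of basement membranes), Ly6c1, Chp2 and Cd34 (a surface protein of endothelial and progenitor cells), at 0.064 to 0.098. Nearest to Jag1 were Cysltr1, Ahr (the aryl hydrocarbon receptor), Mex3b, Vash2 and Cd34, at 0.064 to 0.091. Ahr was also nearest to Jag2, at 0.090, followed by Olfml3, Filip1l, Filip1 and Vash2, up to 0.13. Ahr, Vash2 and Cd34 each appeared for 2 of the 3 members. Lists of this kind are descriptions of 6 arrays, in which mutant 2 carries most of the spread.

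The other genes of the pathway were grouped by role, with 1 probe per gene, and none passed the adjusted threshold in limma. Of the 4 other ligands (Dll3, Dlk1, Dlk2 and Dner), 4 had a difference above 0, where 39.8% of all tested probes lay below 0, with a median of 0.28 and 0 of 4 at an unadjusted p below 0.05. Dner, a ligand without the domain that canonical ligands use for binding, differed by 0.52 (SE 0.32). Dll3, which acts within the cell, differed by 0.33 (SE 0.23) and Dlk2 by 0.23 (SE 0.19). Dlk1 differed by 0.11 (SE 0.54), with mutant 2 highest at 8.26, and by -0.46 without mutant 2. Dner, Dll3 and Dlk2 stayed above 0 without that array. Of the 7 proteases and gamma-secretase subunits, Adam10 alone had an unadjusted p below 0.05, and the differences of the other 6 ran from -0.24 for Adam17 to 0.088 for Aph1b. Psen2, a catalytic subunit of gamma-secretase, differed by -0.18 (SE 0.16).

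Of the 5 genes that modify the receptors with sugars, 0 had an unadjusted p below 0.05. Mfng, a fringe that changes which ligands a receptor prefers, read 1.04, 1.16 and 0.88 in controls and 0.52, -0.89 and 0.79 in mutants, with groups that did not overlap and a difference of -0.89 (SE 0.43) that was -0.37 without mutant 2. Lfng, another fringe, differed by -0.57 (SE 0.39), with mutant 2 lowest at -4.02 (-0.14 without it), and Poglut1, which adds glucose to the receptors, by 0.38 (SE 0.18). Of 14 genes of ligand and receptor trafficking, 1 was lower and 0 higher at an unadjusted p below 0.05. That gene, Neurl3, was well above background on 3 of 3 control arrays but 1 of 3 mutant arrays, so it entered the test through the controls, its difference has no firm size, and its count supports nothing. It read -4.06, -3.97 and -3.58 in controls and -4.40, -5.34 and -5.11 in mutants. Dtx4 and Dtx3l, of the Deltex family, differed by -0.78 (SE 0.42) and -0.42 (SE 0.21), and by -0.27 and -0.24 without mutant 2. Of 8 genes of the nuclear complex 0 passed, with Maml2, a coactivator, at 0.35 (SE 0.18) and Kat2b at 0.18 (SE 0.17).

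Of the 6 tested target genes, 3 were lower and 0 higher at an unadjusted limma p below 0.05, beside the 1.78% and 1.66% of all tested probes. Hes5 was -2.85, -2.85 and -3.09 in controls and -3.50, -3.39 and -3.72 in mutants. Here all 3 mutants lay below all controls with mutant 2 the highest of them. Hes5 was well above background on all 6 arrays but dim, in part as low as the dimmer Notch2 probe (-3.25 to -4.35). Its difference under normexp correction is not given. Hey1 read 0.32, 1.06 and 0.91 in controls and -0.10, -1.43 and -0.080 in mutants, and Heyl -0.15, 0.089 and -0.42 in controls and -0.55, -1.96 and -0.92 in mutants. Hey1 and Heyl had separate groups as well, with mutant 2 lowest. Without mutant 2 the differences of Hes5, Hey1 and Heyl were -0.68, -0.86 and -0.58. The other 3 targets had groups that overlapped. Hes1 differed by -0.42 (SE 0.25), Nrarp, a feedback inhibitor of the pathway, by -0.63 (SE 0.51) with mutant 2 lowest, and Hes7 by 0.0046 (SE 0.11). Among the receptors and ligands, mutants 1 and 3 both lay within the control range for Notch1, Notch3, Jag1, Jag2, Dll1 and Dll4, as they did for Nrarp and Hes7, and mutant 3 lay below that range for Notch2 and Notch4. Targets were not compared with receptors and ligands by a test, and the lower values of Hes5, Hey1 and Heyl were known from earlier results on these arrays.

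**Figure D5:**
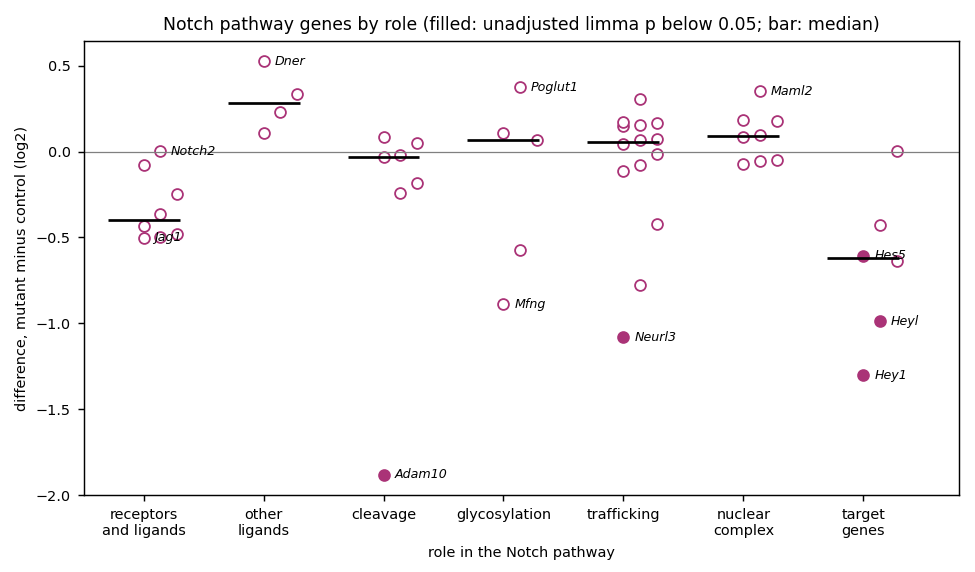
Difference between mutants and controls in log2 signal (vertical axis) for each tested gene of the pathway, grouped by role, with bars at the medians; filled points had an unadjusted limma p below 0.05. The filled points are Adam10, Neurl3, Hes5, Hey1 and Heyl, of which Neurl3 was near background in mutants, and the 8 receptors and ligands lie between -0.50 and 0.0019.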

How the data were processed

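The submitters' processing notes name Agilent Feature Extraction (version 10.7.1.1) for the scanner output, and the design refers to mm9, per the file headers. The deposited spot values are intensity readings with background subtracted by that software and no normalization between arrays. The authors' deposited value table, a linear ratio to the array's 75th percentile as read from its values, served as an alternative; how it was made is not given in the sources used here. The label field names Cy5, while the labels' protocols name Cy3. Accessions were matched to RefSeq symbols (GRCm38.p6), giving 27656 named probes. Outlier spots were dropped, log2 signals were scaled to the 75th percentile, spots of a probe were averaged, and the difference was fitted by limma (version 3.58.1, R 4.3.3; lmFit and eBayes) with Benjamini-Hochberg adjustment over 35228 probes. Each probe had 4 residual degrees of freedom, and the eBayes prior added 2.52. Exact permutation tests were two-sided. Normexp, an alternative, used the median spot and background signals and an added offset of 50 units.

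The members, lists and tests were chosen with earlier results of these data known. Named were all members, Adam10, Col2a1, the 3 genes with the smallest p of each pathway list (1 of them is not reported here), and the 5 nearest genes of the 3 most variable members; Pecam1, Cdh5 and Aph1b were chosen after their values were seen. Titles number the mice 1 to 3 in both groups; deviations of same-numbered arrays correlated at 0.18, 0.054 and -0.15, so the numbers were not taken as pairs.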

Additional observations from a re-analysis of the deposited data

How the results depend on the processing

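Under all 22 alternatives, leaving out single arrays included, limma called 0 probes on the array at an adjusted p below 0.05. The count of member probes at an unadjusted p below 0.05 was 0 with normexp correction (percentile or quantile scaling), quantile scaling, median scaling, no filter on dim probes, 1 probe per gene, the replicate block, eBayes with trend and robust, and the first row of the slide only, and it ran from 0 to 1 when 1 array was left out. With normexp and with 1 probe per gene this count rests on a compressed or absent dim Notch2 probe, and the cause of the other changes was not tested. The median difference of the 8 genes ran from -0.62 to -0.031 when 1 array was left out and was 0.10 with the endothelial score as a covariate, 0.055 without both control 1 and mutant 2 and 0.027 on the first slide row, where fewer arrays or degrees of freedom remain. It was -0.13 with the marrow score (neutrophil, erythroid and B cell markers) as a covariate, -0.081 with array weights, and -0.24 and -0.21 with normexp and percentile or quantile scaling. With the replicate number as a block it was -0.40. That value could not change, since each number holds 1 control and 1 mutant. The dimmer Notch2 probe had an unadjusted limma p of 0.107 in that fit. With a term for the arrays where Xist exceeded Ddx3y (control 1 and mutant 3), the median was again -0.40. It could not change there either, since each group holds 1 such array. The lower transcript of the pair was less low on mutants 1 and 3 (-3.66 and -4.57) than on the other arrays (-7.34 to -7.23). No member was called under any alternative, so the following changes of sign are of uncalled values. Notch2 was -0.030 with quantile scaling, -0.0072 in the authors' deposited table, -0.061 with the endothelial score, -0.071 with the marrow score and -0.051 without both arrays. Notch1 was 0.088 with the endothelial score and 0.053 on the first row, and its dim probe was -0.083 with the endothelial and -0.15 with the marrow score. Notch3 was 0.016 with array weights, 0.26 with the endothelial score, 0.027 on the first row and 0.26 without both arrays. Jag2 was 0.033 with array weights, 0.19 with the endothelial score, 0.15 on the first row and 0.21 without both arrays. Dll1 was 0.098, 0.047 and 0.043, and Dll4 0.16, 0.027 and 0.068, in those last 3 settings. Jag1 was 0.11 with the endothelial score and 0.14 without both arrays, and Notch4 was 0.011 with the endothelial score. When 1 array was left out, Notch1 ran from -0.32 to 0.085, its dim probe from -0.12 to 0.42, Notch2 from -0.031 to 0.045 and Notch3 from -0.75 to 0.013. Precision is limited by the number of arrays and, for the dim Notch1 and Notch2 probes, by signals near background. Dll4 (32.6 to 75.9 intensity units) and Dll1 (59.0 to 102.6) were dim as well, and their differences were smaller under normexp.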
